A study of Mus musculus with 2 samples.

Results

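The epidermal growth factor receptor gene, *Egfr*, and 6 genes for its ligands, *Areg*, *Ereg*, *Hbegf*, *Tgfa*, *Btc* and *Epgn*, were followed across the layers of imiquimod-treated mouse skin. They were chosen by their symbols, each of which named 1 row among the 19465 genes of the count matrices, so all 7 members were measured. Spatial sequencing had been performed on 1 back-skin section of 1 *S1pr2 f/f* mouse and 1 section of 1 *S1pr2 f/f K14-Cre* mouse. In both animals *S1pr2*, a receptor for sphingosine-1-phosphate, is flanked by sites for Cre, and in the latter the keratin 14 promoter drives Cre, so the deletion is aimed at keratinocytes and other cells that use this promoter, while the rest of the skin keeps the gene. The back was depilated at 8 weeks of age, 1 day before daily application of 62.5 mg of 5% imiquimod (IMQ) cream for 7 days. No section without IMQ was analysed here, so the levels below are those of inflamed skin in both genotypes. The sections were 10 μm thick, formalin-fixed and embedded in paraffin, and lay on capture areas of 11 mm (Visium CytAssist), on which probe pairs for each gene are counted as unique molecular identifiers (UMIs, the tag of 1 captured molecule) in spots that can hold several cells.

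EGFR is a receptor tyrosine kinase on the cell surface. Its ligands are made as membrane-anchored precursors that proteases of the ADAM family release, and a bound receptor signals through RAS and the MAP kinases to early response genes such as *Fos* and *Egr1*. In the epidermis keratinocytes make most of these ligands themselves, and the receptor is best known there for driving growth and wound closure of the basal layer and for holding back terminal differentiation.

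The *S1pr2 f/f* section held 5315351 UMIs in 1282 spots and the *S1pr2 f/f K14-Cre* section 2845826 UMIs in 981 spots, of which 1201 and 970 spots with at least 200 UMIs were used. Each spot was placed by the share of its UMIs from lists of epidermis, dermis, fat and muscle markers, which gave 414 keratinocyte-marker spots in *S1pr2 f/f* and 174 in *S1pr2 f/f K14-Cre*, 493 and 336 collagen-marker spots, 89 and 157 adipocyte-marker spots, 200 and 245 muscle-marker spots, and 5 and 58 spots of no layer. All 15 epidermis markers were detected in the keratinocyte-marker spots of both sections, together 120362 and 79383 CPM (UMIs per 1000000 UMIs of the same spots). Layers were not clean, since the same list still gave 20750 CPM in the muscle-marker spots of *S1pr2 f/f* and 3376 CPM in those of *S1pr2 f/f K14-Cre*. The 1226 olfactory, vomeronasal, taste and trace amine receptor genes were taken as a floor. In keratinocyte-marker spots such a gene averaged 1.70 CPM in *S1pr2 f/f* and 7.68 CPM in *S1pr2 f/f K14-Cre*, a log2 ratio of 2.18 (95% interval 2.12 to 2.24), so weak genes carry a higher floor in the latter section. *S1pr2* itself had 154 and 54 UMIs over all spots, 41 and 6 of them in keratinocyte-marker spots, where it was at 17.9 and 11.2 CPM (log2 ratio −0.68, −2.21 to 0.56), so a difference there was not resolved. The 2 sections share 357 spot barcodes, which are codes of array positions and not shared cells. With 1 section per genotype there is no replicate check, no test and no p-value. All intervals are 95% intervals of counting error only, and they take the UMIs of 1 spot as independent. A gene with 20 to 150 UMIs in keratinocyte-marker spots held a median of 1.43 UMIs per spot with any in *S1pr2 f/f* and 1.87 in *S1pr2 f/f K14-Cre*. Fewer spots and uneven depth also raise such medians, and what independent UMIs would give was not computed. The receptor genes, at a mean of 3.87 and 4.12 UMIs each, held 1.24 and 1.49 UMIs per spot with any. The intervals are to be read as too narrow, by an amount that was not measured in either section. Fewer cells of a type in a spot and less RNA per cell cannot be told apart.

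**Figure D1:**
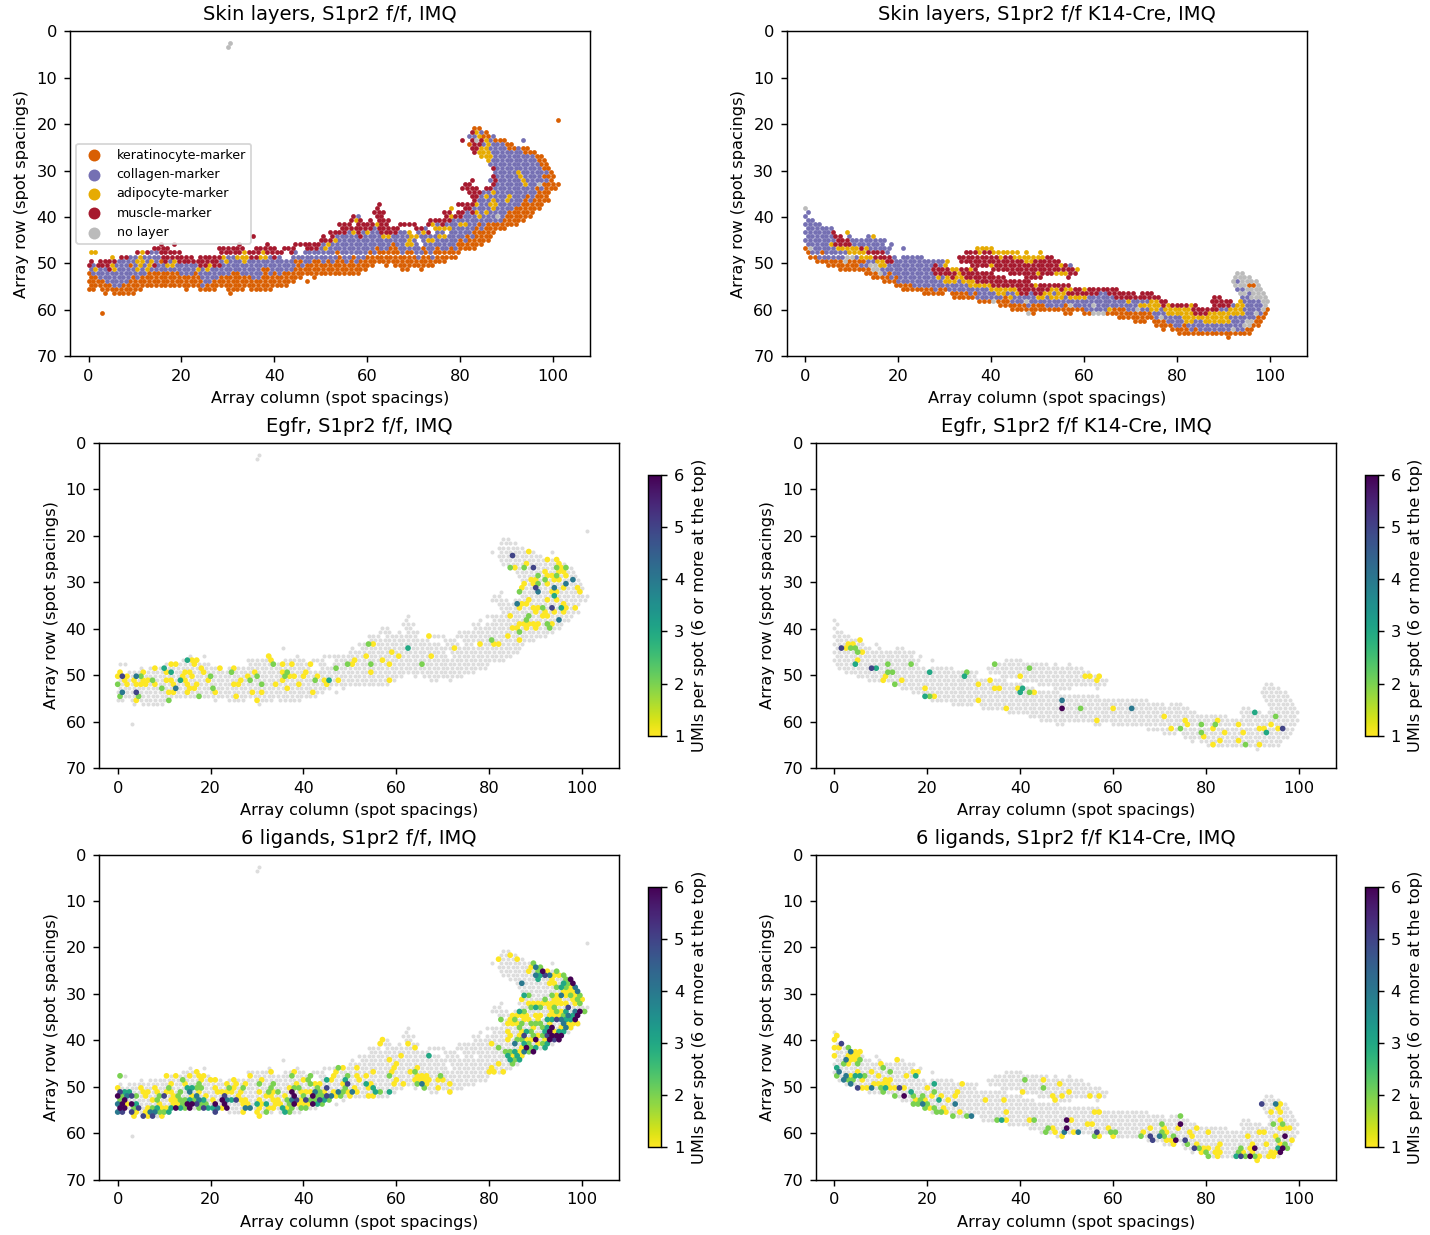
Spots of both sections on the array grid (axes in spot spacings), coloured by layer (top), by *Egfr* UMIs (middle) and by the UMIs of the 6 ligands summed (bottom), with spots without a UMI in grey. Ligand UMIs are most frequent in the band of keratinocyte-marker spots, but lie in the other layers too. The other spots hold 33.6% of ligand UMIs in *S1pr2 f/f* and 52.7% in *S1pr2 f/f K14-Cre*. For *Egfr* these shares are 75.2% and 83.8%. A stretch of the *S1pr2 f/f* section between about 60 and 80 spacings has few UMIs of any gene.

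Of the ligand genes 4 lie together. In the RefSeq annotation of GRCm38.p6, the same assembly as mm10, which the submitters' notes name, *Epgn* (chr5:91027517-91035212), *Ereg* (chr5:91074617-91093649), *Areg* (chr5:91139599-91148432) and *Btc* (chr5:91357261-91402994, on the minus strand) are the 4 protein-coding genes within 375.5 kb of chromosome 5. *Tgfa* lies on chromosome 6 and *Egfr* on chromosome 11. Upstream windows of 250 bases were given for 5 of the 7 members. That of *Tgfa* lies partly inside the gene as annotated, and the other 4 end at the annotated start. Because the neighbours on chromosome 5 differed in their pattern between the sections, the upstream bases of *Epgn* (chr5:91027267-91027516), *Areg* (chr5:91139349-91139598) and *Btc* (chr5:91402995-91403244) are printed from RefSeq, 5′ to 3′ on the gene's own strand, with matches to the searched motifs in capitals.
Epgn: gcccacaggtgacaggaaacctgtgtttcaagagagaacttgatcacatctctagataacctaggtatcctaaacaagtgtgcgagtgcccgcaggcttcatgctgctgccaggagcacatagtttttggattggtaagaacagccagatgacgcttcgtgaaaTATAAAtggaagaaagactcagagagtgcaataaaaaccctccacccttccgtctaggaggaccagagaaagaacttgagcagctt
Areg: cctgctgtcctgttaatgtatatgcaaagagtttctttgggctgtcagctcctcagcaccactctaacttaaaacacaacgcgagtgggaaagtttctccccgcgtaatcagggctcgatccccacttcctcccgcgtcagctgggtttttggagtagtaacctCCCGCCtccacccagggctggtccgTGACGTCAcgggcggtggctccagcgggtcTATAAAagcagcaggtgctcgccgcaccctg
Btc: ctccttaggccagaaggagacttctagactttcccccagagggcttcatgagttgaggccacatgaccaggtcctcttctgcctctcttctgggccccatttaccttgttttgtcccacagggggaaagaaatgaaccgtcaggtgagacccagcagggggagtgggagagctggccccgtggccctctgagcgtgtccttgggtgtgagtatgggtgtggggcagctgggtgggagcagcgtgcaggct
The motifs were searched on both strands, and no match overlapped another. TATAAA, the core of the TATA box, is found in 12.4% of the 32817 promoters of the same length, TGACGTCA, the cyclic AMP response element, in 1.55%, TGANTCA, the AP-1 site, in 6.75%, and CCCGCC, part of the GC box, in 32.5%. *Areg* holds TATAAA at 31 to 26 bases, TGACGTCA at 61 to 54 bases and CCCGCC at 86 to 81 bases before the start. The window of *Epgn* holds TATAAA at 86 to 81 bases, and that of *Btc* holds no match. *Egfr* and *Tgfa* hold CCCGCC, and none of the 5 holds TGANTCA. These are matches of letters in a window and not measured sites.

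*Egfr*, the receptor, was lower in the keratinocyte layer than in the tissue below it in *S1pr2 f/f*. There it had 77 UMIs or 33.7 CPM in keratinocyte-marker spots (interval 26.6 to 42.1), 173 or 86.7 CPM in collagen-marker spots (74.3 to 101), 27 or 91.7 CPM in adipocyte-marker spots (60.4 to 133) and 32 or 45.2 CPM in muscle-marker spots (30.9 to 63.9). Collagen- and adipocyte-marker spots did not differ beyond counting error, nor did muscle- and keratinocyte-marker spots, but the former pair lay above the latter. The *S1pr2 f/f K14-Cre* section gave 23 UMIs or 42.8 CPM (27.2 to 64.3), 66 or 65.3 CPM (50.5 to 83.1), 19 or 40.2 CPM (24.2 to 62.8) and 30 or 42.5 CPM (28.7 to 60.6), and no neighbours in that order differed beyond counting error. The log2 ratio of keratinocyte-marker over all other spots was −1.19 (−1.58 to −0.81) in *S1pr2 f/f* and −0.27 (−0.98 to 0.39) in *S1pr2 f/f K14-Cre*. *Egfr* stood above the floor in each of the 4 layers of both sections. In the collagen-marker spots of *S1pr2 f/f K14-Cre* its 66 UMIs lay in 32 spots, 8 of them in 1 spot.

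The sum of the 6 ligands was highest in the keratinocyte layer in both sections, unlike *Egfr* in *S1pr2 f/f*. Their summed UMIs came to 327 CPM in keratinocyte-marker spots of *S1pr2 f/f* (304 to 351), 148 in collagen-marker, 122 in adipocyte-marker and 56.5 in muscle-marker spots, and to 391 CPM (340 to 448), 149, 63.5 and 22.7 in *S1pr2 f/f K14-Cre*. Collagen- and adipocyte-marker spots did not differ beyond counting error in *S1pr2 f/f*, and all other neighbours in these orders did. Keratinocyte-marker spots held 747 of the 1125 ligand UMIs of *S1pr2 f/f*, or 66.4%, and 210 of the 444 of *S1pr2 f/f K14-Cre*, or 47.3%. They made up 34.5% and 17.9% of the spots. Of the UMIs of all genes they held 2285115 of 5310592 in *S1pr2 f/f*, where they were deeper, and 536994 of 2845300 in *S1pr2 f/f K14-Cre*. The share of spots is therefore too low a baseline in *S1pr2 f/f*. The log2 ratio of keratinocyte-marker over other spots was 1.39 (1.21 to 1.57) and 1.95 (1.67 to 2.22). Of single members, 6 of 7 were at least 2-fold higher in keratinocyte-marker spots of *S1pr2 f/f*, where 5.23% of the 14294 genes tested were, and 1, *Egfr*, was at least 2-fold lower, where 25.6% were. Among members in *S1pr2 f/f K14-Cre*, *Areg*, *Hbegf*, *Tgfa* and *Epgn* were at least 2-fold higher, that is 4 of the 6 members with at least 20 UMIs against 15.4% of 15543 genes, and 0 were lower against 21.9%. These counts depend on how the layer was drawn and, within the same layer, on how UMIs were thinned, averaged or counted. In *S1pr2 f/f* the ratio of *Egfr* was −0.96 after thinning, short of 2-fold, and the median of all genes tested was −0.37. Among the 6 ligands, regardless of the 20 UMIs, 3 to 6 were at least 2-fold higher over the settings tried in *S1pr2 f/f*, with 3 after thinning and 4 with Leiden clusters, a stricter layer purity, the mean over spots or each spot counted once, and 4 to 6 in *S1pr2 f/f K14-Cre*.

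**Figure D2:**
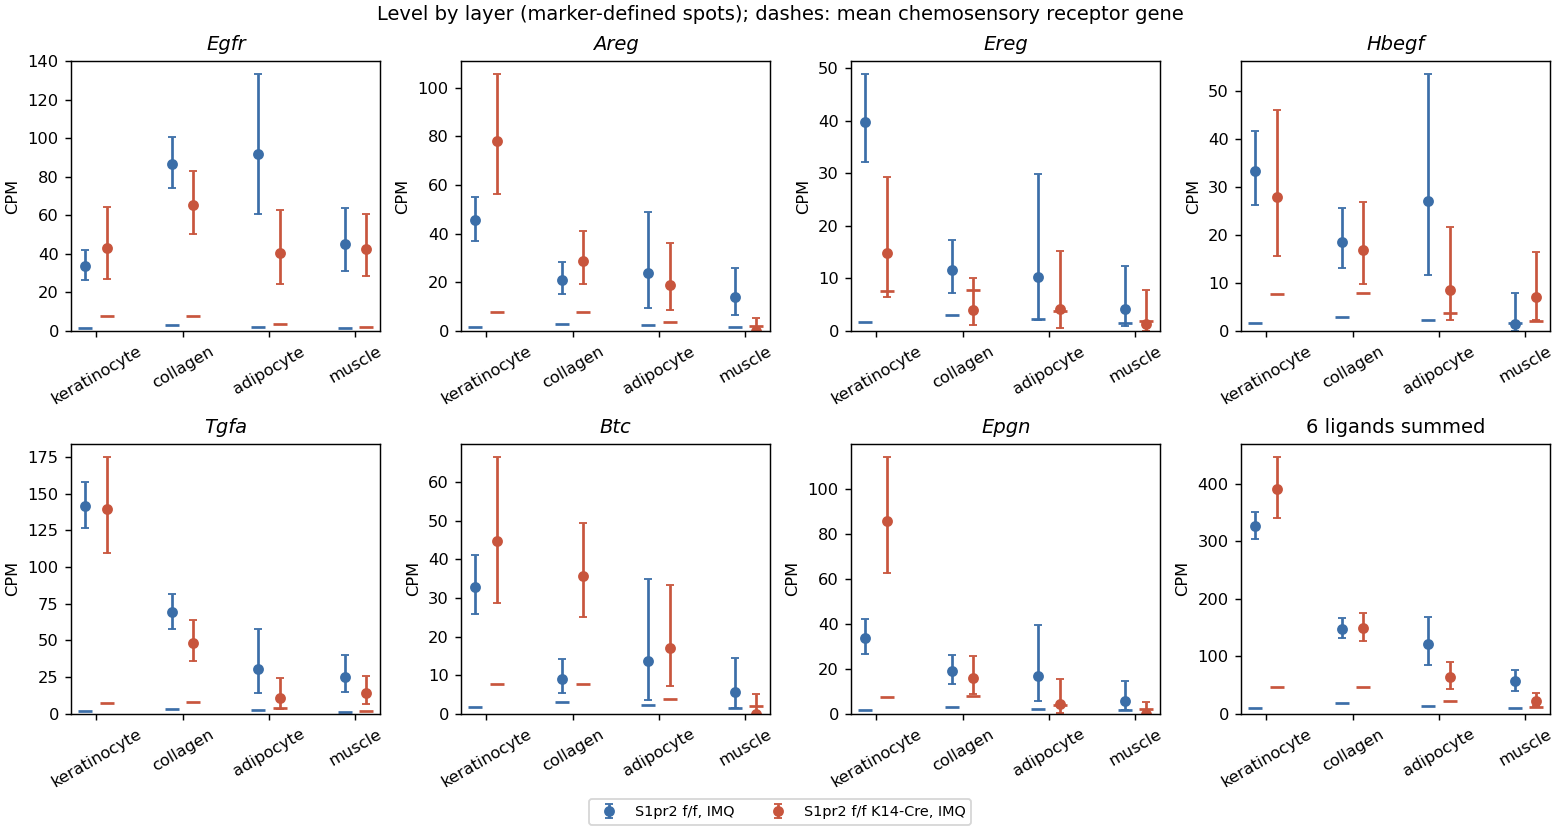
CPM of each member and of the 6 ligands summed in the marker-defined spots of both sections, with 95% counting intervals, and the mean level of a chemosensory receptor gene in the same spots as a dash (6 times that for the sum). By their values the ligands are highest in keratinocyte-marker spots in both sections and *Egfr* is not, although several intervals of neighbouring layers overlap. Levels are not comparable between genes, since each gene has its own probes.

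Each ligand had its own profile. *Tgfa*, transforming growth factor alpha, had an order that counting error resolved in both sections. It had 142 CPM in keratinocyte-marker spots of *S1pr2 f/f* (127 to 158), 69.2 in collagen-marker spots (58.1 to 81.7), 30.6 in adipocyte-marker spots (13.98 to 58.0) and 25.4 in muscle-marker spots (15.1 to 40.2). The *S1pr2 f/f K14-Cre* section had 140 CPM (110 to 175), 48.5 (35.9 to 64.1), 10.6 (3.44 to 24.7) and 14.2 (6.79 to 26.0). The steps from keratinocyte- to collagen-marker spots and from there to the next layer exceeded counting error in both sections, and adipocyte- and muscle-marker spots did not differ. In adipocyte-marker spots of *S1pr2 f/f K14-Cre* its 5 UMIs were within the range of the receptor genes, whose 95th percentile was 6 UMIs.

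*Areg*, amphiregulin, a growth factor that keratinocytes make for themselves, reached 45.5 CPM in keratinocyte-marker spots of *S1pr2 f/f* (37.2 to 55.1) and 78.2 CPM in those of *S1pr2 f/f K14-Cre* (56.4 to 106), and 21.1 and 28.7 CPM in collagen-marker spots. It had 10 UMIs in the muscle-marker spots of *S1pr2 f/f* and 0 of 706265 in those of *S1pr2 f/f K14-Cre*, an interval that reaches 5.22 CPM. The 58 spots of no layer in *S1pr2 f/f K14-Cre* held 12 *Areg* UMIs or 101 CPM (52.2 to 176), by value above the keratinocyte-marker spots. *Epgn*, epigen, a ligand of low affinity, had 33.7 CPM (26.6 to 42.1) and 85.7 CPM (62.7 to 114) in keratinocyte-marker spots, and 19.0 and 15.8 CPM in collagen-marker spots. Its step between these layers was therefore larger in *S1pr2 f/f K14-Cre* (log2 ratio 2.44, 1.59 to 3.36) than in *S1pr2 f/f* (0.82, 0.24 to 1.42), and the intervals do not overlap. In collagen-marker spots of *S1pr2 f/f K14-Cre* its 16 UMIs were within the range of the receptor genes, whose 95th percentile was 18 UMIs.

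*Ereg*, epiregulin, had 39.8 CPM in keratinocyte-marker spots of *S1pr2 f/f* (32.1 to 48.9) against 11.5 in collagen-marker spots (7.31 to 17.3). In *S1pr2 f/f K14-Cre* only 15 *Ereg* UMIs were found in the whole section, 8 of them in keratinocyte-marker spots (14.9 CPM, 6.43 to 29.4, where 84.7% of the receptor genes were lower). Over that whole section *Ereg* was at 5.27 CPM (2.95 to 8.70) and the mean receptor gene at 5.98 CPM, and in collagen-marker spots at 3.96 and 7.82 CPM, so outside the keratinocyte layer its UMIs there are read as background. Inside that layer its 8 UMIs were also within the range of the receptor genes, of which the highest 5% had over 11 UMIs. *Hbegf*, heparin-binding EGF-like growth factor, had 33.3 CPM (26.2 to 41.6) and 27.9 CPM (15.6 to 46.1) in keratinocyte-marker spots and 18.5 and 16.8 CPM in collagen-marker spots. That step exceeded counting error in *S1pr2 f/f* (log2 ratio 0.84, 0.26 to 1.45) and not in *S1pr2 f/f K14-Cre* (0.73, −0.37 to 1.82). The 17 *Hbegf* UMIs in collagen-marker spots of *S1pr2 f/f K14-Cre* were within the range of the receptor genes, whose 95th percentile was 18 UMIs. In *S1pr2 f/f* *Hbegf* was at the floor in muscle-marker spots, with 1 UMI. *Btc*, betacellulin, had 32.8 CPM in keratinocyte-marker spots of *S1pr2 f/f* (25.8 to 41.1) and 9.02 in collagen-marker spots (5.35 to 14.3). These layers did not differ beyond counting error in *S1pr2 f/f K14-Cre*, with 44.7 CPM (28.6 to 66.5) and 35.6 CPM (24.95 to 49.3), and the 58 spots of no layer held 16 *Btc* UMIs or 135 CPM (76.9 to 219). The 24 *Btc* UMIs of the keratinocyte-marker spots there lay in 11 spots, 9 of them in 1 spot. Against the adipocyte-marker spots of *S1pr2 f/f*, where *Areg*, *Hbegf*, *Btc* and *Epgn* had 4 to 8 UMIs each, the keratinocyte-marker spots were not resolved for any of these 4.

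Shares of spots with a UMI follow depth, which was a median of 4668 UMIs per keratinocyte-marker spot in *S1pr2 f/f* and 2313 in *S1pr2 f/f K14-Cre*. Any ligand was found in 60.9% of keratinocyte-marker spots of *S1pr2 f/f* and 47.7% of those of *S1pr2 f/f K14-Cre*, against 16.5% and 4.90% of muscle-marker spots, whose median depth was 2688 and 2367 UMIs. After thinning every spot with at least 1000 UMIs to that number (350 of 414 and 156 of 174 keratinocyte-marker spots) the shares were 25.1% (20.7 to 30.03%) and 26.9% (20.1 to 34.6%), against 3.42% and 1.33% of thinned muscle-marker spots. The thinned share was 3.71% (1.99 to 6.27%) and 7.69% (4.04 to 13.1%) for *Epgn*, and 3.43% (1.78 to 5.91%) and 1.92% (0.398 to 5.52%) for *Ereg*. At this depth the sections overlap in each of these shares.

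Between the sections the members did not move as 1 group. In keratinocyte-marker spots *Epgn* was 2.54-fold higher in *S1pr2 f/f K14-Cre* and *Ereg* was at 0.374 of its *S1pr2 f/f* level, and these were the only members of 7 to pass 2-fold. The same rule called 20.6% of the 11532 genes tested as higher and 13.8% as lower, and among genes with 50 to 500 UMIs 10.3% and 15.3%, so a call on either side is common here. The log2 ratio of *S1pr2 f/f K14-Cre* over *S1pr2 f/f* was 1.35 (0.79 to 1.89) for *Epgn* on 77 and 46 UMIs, 0.78 (0.23 to 1.31) for *Areg* on 104 and 42 UMIs, and −1.42 (−2.67 to −0.38) for *Ereg* on 91 and 8 UMIs. *Tgfa* was at −0.02 (−0.40 to 0.34), *Btc* at 0.45 (−0.28 to 1.13), *Hbegf* at −0.25 (−1.16 to 0.56) and *Egfr* at 0.35 (−0.39 to 1.03), none of them resolved. The sum of the 6 ligands was at 0.26 (0.03 to 0.48).

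These ratios move with the scale. The TMM factor, which assumes that most genes do not differ, lowers each ratio by 0.55 and the median of all genes tested from 0.11 to −0.44, after which *Epgn* is at 0.79, no member is at least 2-fold higher, *Ereg* stays lower, and the ligand sum turns to −0.30. Over the settings tried for the keratinocyte layer, TMM included, *Epgn* ranged from 0.79 to 1.99 and *Ereg* from −2.78 to −0.83, so neither changed direction. *Areg* ranged from 0.19 to 1.51 and *Tgfa* from −0.85, with Leiden clusters, to 0.54, in spots touching no other layer. Counted at most once per spot, *Epgn* was at 1.17, *Areg* at 0.44, *Btc* at 0.03 and *Ereg* at −1.17. The keratinocyte-marker spots themselves differed between the sections, with 50458 CPM of the 7 differentiation markers in *S1pr2 f/f* and 18082 in *S1pr2 f/f K14-Cre* while the 7 basal markers were at 31976 and 31727, and the 5 neutrophil markers were at 22657 and 9045 CPM and the 6 sebaceous markers at 1108 and 572 CPM. Over the whole *S1pr2 f/f* section the 91 spots with an *Ereg* UMI had 24250 CPM of the neutrophil markers against 11147 CPM in the spots without, and these spots were also deeper (median 6741 against 3643 UMIs). This 2.18-fold difference was not particular to *Ereg*. Spots with each of the other ligands were higher too, from 1.63-fold for *Epgn* to 1.94-fold for *Hbegf*, while *Egfr* spots were at 0.883. *Ereg* spots also had 1.79-fold the epidermis markers and 1.92-fold the differentiation markers. The neutrophil list includes *S100a8* and *S100a9*. In the *S1pr2 f/f* spots of no layer it gave 2732 CPM with *Retnlg*, *Ly6g* and *Csf3r* not detected. Those are 5 spots with 78 UMIs of the list, too few to tell its source. Whether the list stands for neutrophils alone was not tested. The part of neutrophil and sebaceous RNA in the member ratios was not tested.

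**Figure D3:**
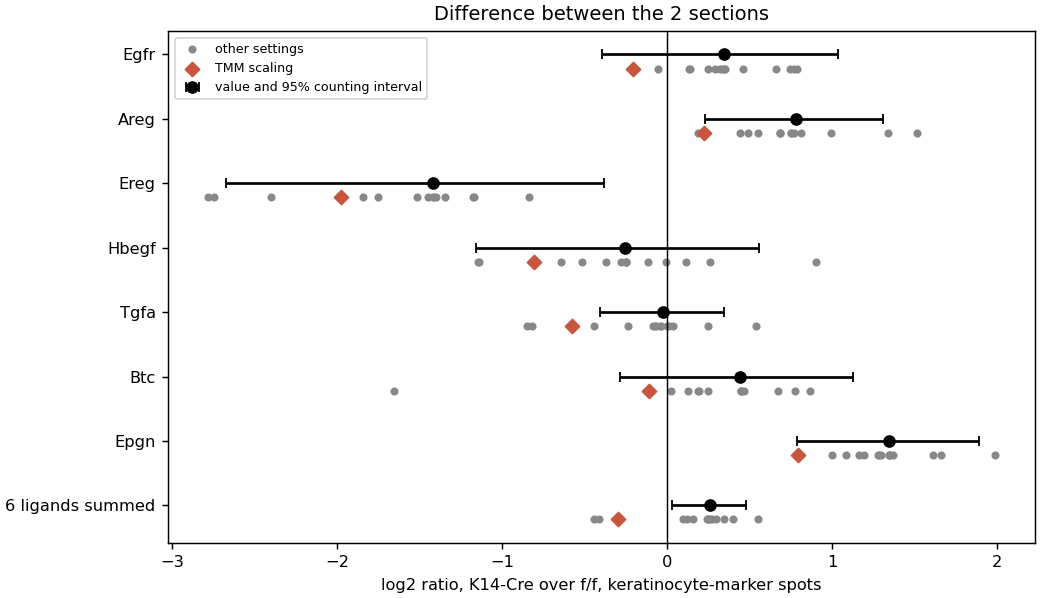
Log2 ratio of *S1pr2 f/f K14-Cre* over *S1pr2 f/f* in keratinocyte-marker spots for each member and the sum of the 6 ligands (black, with 95% counting intervals). Grey points are other settings and the diamond is TMM scaling. *Epgn* stays to the right of 0 and *Ereg* to the left in every setting drawn, and the ligand sum lies on both sides.

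When keratinocyte-marker spots were split at the median of their basal over differentiation markers, *S1pr2 f/f* had 156 basal and 258 differentiated spots and *S1pr2 f/f K14-Cre* 138 and 36, with 93 and 18 spots near the split. Among basal spots *Epgn* was at 38.6 CPM in *S1pr2 f/f* and 81.6 CPM in *S1pr2 f/f K14-Cre* (log2 ratio 1.08, 0.38 to 1.79), *Areg* at 36.3 and 79.5 CPM (1.13, 0.41 to 1.86), and *Ereg* at 28.3 and 10.5 CPM (−1.44, −3.18 to −0.03), beside a receptor gene mean of 7.45 CPM in the latter. *Btc* was at 15 and 17 UMIs (1.06, −0.03 to 2.17). Among basal spots alone *Areg*, *Btc* and *Epgn* were thus at least 2-fold higher, where 12.8% of 9137 genes were, and *Ereg* lower, where 16.4% were. Among differentiated spots, of which *S1pr2 f/f K14-Cre* has few, *Epgn* was at 1.95 (0.56 to 3.12) on 43 and 7 UMIs and *Btc* at 1.47 (0.10 to 2.60) on 60 and 7 UMIs, while *Ereg* was at 0.11 (−2.20 to 1.72) on 66 and 3 UMIs and was not resolved. Within the *S1pr2 f/f* epidermis *Btc* was lower in basal spots, with 17.0 CPM against 42.8 CPM in differentiated spots (−1.33, −2.25 to −0.50), and likewise in *S1pr2 f/f K14-Cre* with 35.6 against 119 CPM (−1.74, −3.08 to −0.23). It was the only member of 7 at least 2-fold lower in basal spots of *S1pr2 f/f*, where 2.52% of 9951 genes were and 6.38% were higher, and 1 of the 5 tested in *S1pr2 f/f K14-Cre*, where 11.3% of 4970 were. *Egfr* had 38.6 and 30.6 CPM in basal and differentiated spots of *S1pr2 f/f* (0.33, −0.36 to 1.01), and in *S1pr2 f/f K14-Cre* it passed 2-fold on 22 UMIs against 1, where 27.3% of genes did, with an interval from −1.19 to 6.81.

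Below the epidermis *Btc* was 3.95-fold higher in collagen-marker spots of *S1pr2 f/f K14-Cre*, with 18 UMIs in 14 spots and 36 UMIs in 18 spots (log2 ratio 1.98, 1.13 to 2.88), where 20% of 14763 genes were at least 2-fold higher and the receptor genes averaged 3.01 and 7.82 CPM. *Ereg* had 23 UMIs there in *S1pr2 f/f* and 4 in *S1pr2 f/f K14-Cre*, the latter at the background level given above, and counted as lower by the rule, where 7.09% were. The neutrophil markers, *S100a8* and *S100a9* among them, were at 6191 and 1446 CPM in these spots. *Egfr* in adipocyte-marker spots was at 0.438 of its *S1pr2 f/f* level (−1.19, −2.12 to −0.29), where 13.9% of 7301 genes were at least 2-fold lower and 8.66% higher. No other member had 20 UMIs there. This layer was mixed: in 60 of its 89 and 81 of its 157 spots the highest scaled list was under 1.5 times the next. Its spots held 30520 and 70655 CPM of the muscle markers, beside 12487 and 23453 CPM of the adipocyte markers. The part of this mixing in the *Egfr* ratio was not tested. In muscle-marker spots neither *Egfr* nor *Tgfa*, the members with enough UMIs, passed 2-fold, where 5.48% of 8773 genes were higher and 15.3% lower. Over all spots 1 of 7 members was at least 2-fold lower and 0 were higher, where 4.6% and 28.4% of 18125 genes were. That member, *Ereg*, had 120 and 15 UMIs, or 22.6 and 5.27 CPM (−2.10, −2.98 to −1.32), *Tgfa* was at −0.87 (−1.14 to −0.60), and *Epgn* was at −0.03 (−0.49 to 0.41), and keratinocyte-marker spots are a smaller share of the *S1pr2 f/f K14-Cre* section.

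With distance from the nearest keratinocyte-marker spot, counted in steps on the spot grid, the ligand sum in *S1pr2 f/f* went from 327 CPM at 0 steps to 170 at 1 step, 129 at 2, 86.1 at 3 to 4 (68.6 to 107) and 116 at 5 or more (87.5 to 150). *S1pr2 f/f K14-Cre* gave 391, 223, 128, 78.3 and 56.5 CPM. *Egfr* went the other way in *S1pr2 f/f*, from 33.7 to 51.7 at 1 step and 97.6 at 2 steps (75.9 to 123), then 86.1 and 74.4, while in *S1pr2 f/f K14-Cre* it stayed between 37.3 and 64.5 CPM. Transcripts of the epidermis markers were spread as well, from 120362 CPM at 0 steps to 18534 CPM at 5 or more in *S1pr2 f/f* and from 79383 to 3649 CPM in *S1pr2 f/f K14-Cre*, and their part in the deep ligand counts was not tested. The mean receptor gene was at 3.19 CPM at 1 step and 1.96 at 5 or more in *S1pr2 f/f*, and at 9.59 and 3.41 CPM in *S1pr2 f/f K14-Cre*. For the ligand sum the floor is 6 times that, and it was not taken off these values.

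**Figure D4:**
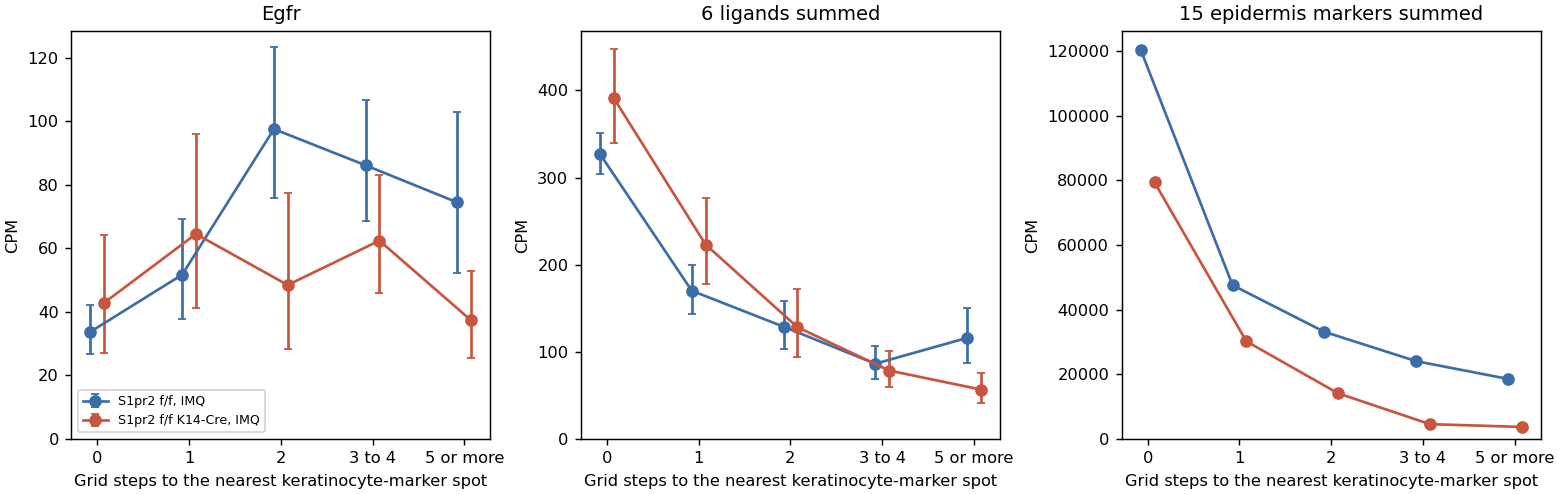
CPM of *Egfr*, of the 6 ligands summed and of the 15 epidermis markers summed by the number of grid steps to the nearest keratinocyte-marker spot, with 95% counting intervals for the members. By its values the ligand sum is lower at each step down to 3 to 4 steps in both sections. Intervals of neighbouring steps overlap from 1 step on in *S1pr2 f/f* and from 2 steps on in *S1pr2 f/f K14-Cre*. The markers are lower at every step, and *Egfr* is higher at 2 steps than at 0 in *S1pr2 f/f*.

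Along the section the ligands were not even. In 5 blocks of 20 spot spacings, the ligand sum of keratinocyte-marker spots lay between 274 and 365 CPM in *S1pr2 f/f*, whose block from 60 to 80 spacings was shallow (median 724 UMIs per spot). In *S1pr2 f/f K14-Cre* it was 214 CPM (159 to 280) in the block from 0 to 20 spacings, which held 243506 of the 536994 UMIs, and 409 to 716 CPM in the other 4. *Epgn* had 45.2 CPM in that block and 94.3 to 135 CPM in the others, against 15.1 to 49.8 CPM over the blocks of *S1pr2 f/f*. By value its *S1pr2 f/f K14-Cre* level thus lay within the *S1pr2 f/f* range in 1 block of 5. The others rested on 5 to 14 *Epgn* UMIs, and the interval of each overlapped that of the highest *S1pr2 f/f* block (35.2 to 68.3). *Tgfa* ranged from 110 to 164 CPM and from 82.1 to 215 CPM. Blocks of 1 section are not replicates.

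The genes whose pattern over the layers was most like a member were ranked where the member had at least 100 UMIs in each section, which only *Egfr* and *Tgfa* had. Over 10 points (4 layers and the spots of no layer, in 2 sections) and among 5674 genes, *Egfr* was closest to *Ctsc* (Pearson r of log2 CPM 0.945), *Itgbl1* (0.911) and *Necap2* (0.888). *Tgfa* was closest to *Slc6a14* (0.989), *S100a16* (0.968) and *Krt17* (0.966), a keratin of activated keratinocytes. The points share sections and depth, and the correlations are a description.

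Around the members, 53 genes of the pathway were taken from lists, 48 of which had at least 20 UMIs in keratinocyte-marker spots, and 7 were at least 2-fold higher and 4 lower in *S1pr2 f/f K14-Cre*, where 20.6% and 13.8% of all genes tested were. Among the other ErbB receptors and ligands, *Erbb2*, the partner receptor that binds no ligand of its own, was at a log2 ratio between the sections of −0.80 (−1.41 to −0.24), with 94.1 and 54.0 CPM. *Erbb3*, which relays through its partners, was at −0.72 (−1.23 to −0.24), with 123 and 74.5 CPM. Neither passed 2-fold. With the TMM factor 3 of the 5 genes tested in this list were at least 2-fold lower, beside 29.2% of all genes tested. With the receptor mean taken off 2 were, beside 28.3%. *Egf*, the ligand that gives the receptor its name, was the 1 of 5 tested to pass, on 12 and 13 UMIs or 5.25 and 24.2 CPM (2.20, 0.96 to 3.47), a ratio like the 2.18 of the receptor genes that served as the floor, of which the highest 5% had over 9 and 11 UMIs. *Erbb4* had 3 and 6 UMIs and was too low to be tested.

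No gene of the 5 for the release of ligands passed 2-fold, where 20.6% of all genes tested were higher and 13.8% lower. *Adam17*, the main protease for *Tgfa* and *Areg*, was at −0.23 (−0.70 to 0.22), *Adam10*, which releases betacellulin, at 0.08 (−0.30 to 0.45), *Rhbdf1* and *Rhbdf2*, the escorts of ADAM17, at −0.29 and −0.26, and *Timp3*, its inhibitor, at 0.24. On this scale the intervals of all 5 leave out 2-fold in either direction. With the TMM factor all 5 were below 0 and none passed 2-fold, with a median of −0.78 beside −0.44 for all genes tested. That factor lowers each ratio by 0.55, so not all of the intervals then leave out 2-fold. Of the 12 inhibitors and down-regulators 11 were tested, with 1 at least 2-fold higher and 2 lower, beside 20.6% and 13.8% of all genes tested. *Lrig3* was higher, on 19 and 17 UMIs, and *Spry1* (−1.16, −2.66 to 0.05) and *Spred2* (−1.46, −2.95 to −0.26) lower, on 6 UMIs each in *S1pr2 f/f K14-Cre*. With each spot counted once per gene 0 of the 11 were higher and 0 lower, beside 13.3% and 11.4% of all genes tested. *Spred1*, of the same family, was at 0.92 (0.53 to 1.30) and *Cbl*, a ubiquitin ligase that takes the receptor down, at 0.45.

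Among 14 genes of the signal relay that were tested none was higher and 2 were lower, beside 20.6% and 13.8% of all genes tested. Their median log2 ratio was −0.20 against 0.11 for all genes tested. *Nras* was at 95.4 and 29.8 CPM (−1.68, −2.51 to −0.95) and *Mapk3*, which encodes ERK1, at 171 and 67.0 CPM (−1.35, −1.89 to −0.86). *Map2k1*, which encodes a kinase that activates it, was at 0.34 (0.02 to 0.65). With the TMM factor, which lowers all ratios by 0.55, 6 of 14 relay genes were at least 2-fold lower, as were 29.2% of all genes tested, whose median was then −0.44. Of the 13 early response and feedback genes 5 were at least 2-fold higher and 0 lower, beside 20.6% and 13.8% of all genes, with a median of 0.61. *Dusp6*, an ERK phosphatase that ERK itself induces, was at 1.17 (0.63 to 1.69) and *Etv5* at 1.13 (0.49 to 1.75), while *Ier3* was at −0.24 and *Dusp5* at −0.91. *Egr1* was at 0.14 (−0.17 to 0.43) on 453 and 117 UMIs. The other 3 past 2-fold, which like *Egr1*, *Egf*, *Erbb4*, *Lrig3* and *Adam17* were named after their values were seen, were *Fos* (1.09, on 86 and 43 UMIs), *Etv4* (1.10) and *Fosl1* (1.57, on 20 and 14 UMIs). This count depended on the scale: 1 of 13 was at least 2-fold higher and 1 lower with the TMM factor, beside 10.2% and 29.2% of all genes, with a median of 0.06, and 0 of 13 were higher when each spot was counted once per gene, beside 13.3% of all genes, with a median of 0.52.

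**Figure D5:**
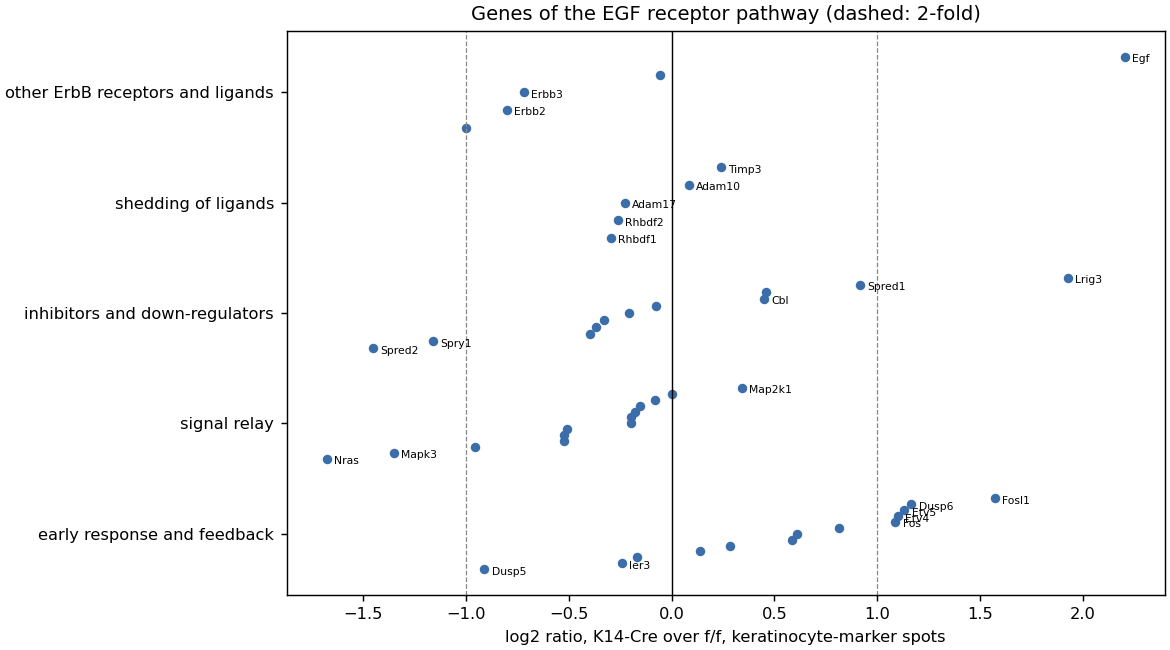
Log2 ratio of *S1pr2 f/f K14-Cre* over *S1pr2 f/f* in keratinocyte-marker spots for the genes of the pathway lists, 1 point per gene and names for those described except *Egr1*, with dashed lines at 2-fold. On this scale, without the TMM factor, genes of ligand release lie near 0, the relay genes reach furthest left, and 5 early response genes lie to the right of the 2-fold line.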

How the data were processed

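The matrices deposited by the authors hold whole-number UMI counts, not normalized, with the array position of each spot under tissue. Per the file headers they were made with Space Ranger 3.0.0, and the submitters' notes name mm10. The spots under 200 UMIs, 81 and 11 of them, were left out. Per spot, the share of UMIs from each layer's list (15, 9, 7 and 7 markers) was divided by its 95th percentile over both sections, and the highest list named the spot if it reached 0.25. UMIs were summed per section and layer and divided by their total (Python 3.11.15, scipy 1.17.1). Intervals are exact Poisson for levels, conditional binomial for ratios and Clopper-Pearson for shares. A gene counted as higher or lower at 2-fold with at least 20 UMIs over both sides. The code was tested on simulated data. Named genes were all members, the 2 highest and 2 lowest genes of each pathway list with at least 50 UMIs, and the 3 genes most like a member. Members and lists were chosen with earlier results of these data known. The alternatives were other layer cuts, Leiden clusters (scanpy 1.11.5), spot filters, thinning to 1000 UMIs, the TMM factor (edgeR 4.0.16), the mean over spots, the receptor gene mean taken off, all spots over tissue, and a minimum of 30 UMIs. Another 3, chosen after seeing the data, were each section's own percentile, keratinocyte-marker spots that touch no other layer, and each spot counted at most once per gene. With 1 sample per group, no test was possible. Probe capture measures only the probed stretch of a transcript, so levels were compared within a gene. Promoters of *Ereg* and *Hbegf* were not used here. A gene of the relay list that counts in its totals is not reported here by itself and is not drawn.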

Additional observations from a re-analysis of the deposited data

How the results depend on the processing

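Of 92 recomputed values of the 6 main ratios, 80 stayed within the main counting interval, 8 left it in the same direction and 4 left it with the opposite sign. Of the 80, 5 changed sign, all of *Egfr*, whose interval held 0: between the sections it was at −0.06 thinned, −0.21 with the TMM factor and −0.23 over all spots, and over other spots in *S1pr2 f/f K14-Cre* at 0.05 with a layer cut of 0.5 and 0.01 with each spot counted once. The ligand sum between the sections turned to −0.44 with Leiden clusters at resolution 1, −0.41 at resolution 0.5, −0.30 with the TMM factor and −0.44 over all spots, and was 0.55 in keratinocyte-marker spots touching no other layer. Its direction is therefore not settled. For keratinocyte-marker over other spots in *S1pr2 f/f*, *Egfr* was at −1.61 as a mean over spots, and the ligand sum at 1.76 with the TMM factor, 1.64 as a mean over spots, 1.66 touching no other layer and 1.14 with each spot counted once. *Egfr* there stayed within its interval at −0.96 thinned and −0.82 with the TMM factor, but both fall short of 2-fold. In *S1pr2 f/f K14-Cre* the ligand sum was at 2.35 with the receptor mean taken off and 2.51 touching no other layer. Among single ligands, *Btc* over other spots in *S1pr2 f/f K14-Cre* turned to −1.08 in spots touching no other layer, and *Epgn* between the sections to −0.031 over all spots. Of the other values of single ligands, section and layer ratios together, 233 stayed within the interval and 40 left it, 7 and 3 of them with the opposite sign. Among those that left it, between the sections *Btc* reached −1.65 and *Hbegf* 0.90, against main values of 0.45 and −0.25 whose intervals held 0. The genes at least 2-fold higher between the sections fell from 2380 to 1397 with a minimum of 30 UMIs. The Leiden clusters taken as epidermis held 183 and 264 spots at resolution 0.5, fewer than the keratinocyte-marker spots in *S1pr2 f/f* and more in *S1pr2 f/f K14-Cre*. The cause of these changes was not tested. *Ereg* rests on 8 UMIs in the keratinocyte-marker spots of *S1pr2 f/f K14-Cre*. No paired analysis was possible because each group holds 1 sample.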

Other observations

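The spots in which a ligand was found, and in *S1pr2 f/f K14-Cre* also those with *Egfr*, differed in the summed level of a further marker list. In *S1pr2 f/f K14-Cre* the 34 spots with a *Hbegf* UMI had 3191 CPM of 6 developmental muscle genes (*Myh3*, *Myh8* and others, which mark growing or repairing fibres) against 432 CPM in the 936 spots without, a fold of 7.39, and 9 of the 34 held any of them. *Areg* spots had 1570 against 509 CPM, on 11 of 55 spots, and *Btc* spots 1325 against 551 CPM, on 7 of 37. *Ereg* spots had 1618 against 558 CPM, but this value rests on 1 of 14 spots. Keratinocyte-marker spots there held only 18 UMIs of the 6 developmental muscle genes. Outside that layer *Ereg* UMIs were read as background, so nothing is drawn from the *Ereg* value. Spots with *Egfr*, the receptor, had 973 against 534 CPM, a fold of 1.82, on 19 of 79. The *S1pr2 f/f* section held few of these UMIs and gave the opposite order for these ligands, with 12.3 CPM in spots with *Hbegf* against 27.5 CPM without and 11.8 against 28.2 CPM for *Areg*. For *Egfr* it gave 25.7 against 25.6 CPM. In *S1pr2 f/f K14-Cre* the 46 spots with *Epgn* had 136 against 615 CPM, on 4 of 46, and the 82 with *Tgfa* 182 against 636 CPM, on 17 of 82. *Tgfa* and *Areg* spots there held any of these genes about as often, so their opposite orders come from how much such spots held. The number of spots without a ligand that held any was not counted. Spots with *Hbegf* were deeper (median 3725 against 2307 UMIs), and the fold rests on few spots. In the collagen-marker spots of that section *Hbegf* was within the range of the receptor genes, as given above. These comparisons were made after the values were seen, and spots of 1 section are not replicates.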
